A study of Mus musculus with 12 samples.

Results

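The interaction between genotype and culture condition is a difference of differences. For each gene it is the change from naive culture to epiblast-like cell (EpiLC) culture in Pcbp1 knockout (KO) clones of mouse embryonic stem cells, minus the same change in control clones, on a log2 scale. A value above 0 means that the change was more positive in KO, whether the gene rose more, fell less or moved the other way. All 12 libraries of the series and all genes entered, with the naive and EpiLC library of a clone kept together as a pair. Of 55487 genes listed, 18134 had enough counts to be tested, and 230 of these were called, meaning that the adjusted p of edgeR's quasi-likelihood test was under 0.05.

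Polyadenylated RNA was sequenced from 3 KO and 3 control clones of the male line E14 Tg2a, each grown in both conditions, which gave 4 groups of 3 libraries. The control clones are called wild type (WT) in the sample labels and Scr in the series text, and the labels describe neither the knockout allele nor how it was made. The naive WT and naive KO groups grew in serum-free N2B27 supplemented with LIF, a MEK inhibitor and a GSK3β inhibitor. The EpiLC WT and EpiLC KO groups were moved from that medium to fibronectin-coated plates and N2B27 with bFGF, activin A and KOSR, a serum replacement, for 48 h. Every library thus comes from cells first adapted to the naive medium, and every clone from a single line, so the p-values measure the spread between clones of that line.

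Embryonic stem cells in this naive medium resemble the epiblast before implantation. When the inhibitors and LIF are removed and FGF and activin are given, cells silence naive transcription factors such as Klf4, Esrrb and Tfcp2l1 and switch on formative genes such as Fgf5, Otx2 and the DNA methyltransferases. PCBP1 is a KH-domain protein that binds C-rich stretches of RNA and acts in splicing, stability and translation of its targets. The series names amino acid metabolism as a process under PCBP1, and ATF4 is the transcription factor that cells make when amino acids run short: it switches on enzymes, transporters and tRNA synthetases through elements known as CARE.

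The CARE core, TGATGNAA, was looked for on both strands of the 250 bases before each RefSeq start (GRCm38.p6). It is shown for Asns, the only called member of the ATF4 list, and for the 3 members with the largest differences among those that hold it. Capitals mark the core, and each line is read on the strand that spells it.
Asns: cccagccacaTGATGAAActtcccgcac
Chac1: ctggcaggagTGATGCAAcggcagggaa
Jdp2: tagccggggcTGATGCAAcccgtcccgc
Nupr1: aagccctgtcTGATGCAAtctggccctt
These lie at chr6:7693215-7693242 on the minus strand, chr2:119351039-119351066 on the minus strand, chr12:85599373-85599400 on the plus strand and chr7:126625563-126625590 on the plus strand. The core of Asns ends 16 bases before the RefSeq start, within the span that the deposited table gives the gene, and that of Nupr1 103 bases before. The core was present for 7 of the 18 ATF4-list genes with a RefSeq entry (38.9%), against 1056 of 27025 genes (3.91%). The list was drawn up as ATF4 and stress targets, so this share describes the list and not these data. The core was present for 1 of 77 matched genes called lower in the interaction (1.3%), which is Asns, and for 3 of 94 called higher (3.19%). A match is a run of letters, not a measured binding site.

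Libraries held 27146744 to 42204511 counts. Markers matched the culture labels: the summed level of 6 naive markers was 3327 to 3616 CPM, or scaled counts per 1000000, over the naive libraries and 131 to 589 CPM over the EpiLC libraries, and that of 5 formative markers 81.4 to 151.8 and 2020 to 3596 CPM. Markers of mesoderm, neuroectoderm and trophoblast summed to at most 24.2, 10.0 and 5.59 CPM in any library. Fibroblast and feeder markers (4 of 5 tested) summed to 2.81 to 8.25 CPM in naive libraries, 8.85 to 17.9 CPM in EpiLC WT and 17.98 to 32.2 CPM in EpiLC KO; their part in the results was not tested. WT clone 2 stood apart from the other control clones. Its naive genes fell less, by 2.43 on average on the log2 scale against 3.96 and 4.04 in WT clones 1 and 3 and 3.05 to 3.83 in the KO clones. Zfp42, a naive marker, stood at 174 CPM in its EpiLC library against 38.1 and 35.02 CPM in the other 2. In such bulk libraries, fewer cells of a state and less RNA per cell cannot be told apart.

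Pcbp1, the targeted gene, was measured at 475, 418 and 474 CPM in naive WT and 295, 302 and 303 CPM in naive KO. In EpiLCs it was at 692, 512 and 592 CPM in WT and 250, 302 and 265 CPM in KO. Every KO library was thus below every WT library, and transcript remained in all of them. The transition raised Pcbp1 in WT by 0.38 on the log2 scale (edgeR adjusted p = 0.0026), while the KO change was -0.15 (adjusted p = 0.14). The interaction was -0.53 ± 0.11 (SE), with an edgeR adjusted p of 0.060, and was not called; the changes of the KO clones, -0.24 to -0.00, lay below those of the WT clones, 0.29 to 0.54. The interaction of Pcbp1 was called without WT clone 2 (-0.57, edgeR adjusted p = 0.030); without each of the other clones the adjusted p was 0.11 to 0.27. Its relatives Pcbp2, Pcbp3, Pcbp4 and Hnrnpk lay between -0.07 and 0.20, and none was called. Pcbp1 overlaps 1600020E01Rik on the other strand, and the deposited counts do not separate strands.

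Most of the transition was shared by the genotypes. The test called 10475 genes as changed between naive cells and EpiLCs in WT (57.8% of those tested, 5168 up and 5307 down) and 11044 in KO (60.9%, 5447 up and 5597 down). Of the genes called in both, 8647 moved in the same direction and 53 in opposite directions. Across the 18134 genes the WT and KO changes correlated at 0.905 (Pearson, a description across genes that share libraries). The typical size of a change was 0.63 in WT and 0.65 in KO (median of absolute log2 values), and the typical size of the interaction was 0.29.

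Against that shared change, 230 genes differed (1.27% of those tested). The KO change was the more positive for 134 (0.739%) and the more negative for 96 (0.529%). The difference was at least 2-fold for 118 of the former and 48 of the latter. At an unadjusted p under 0.05 the count was 3190 genes (17.6%). The changes of the 3 KO clones did not overlap those of the 3 WT clones for 229 of the 230 genes; over all genes tested this held for 24.4%. The exception was Gabra3, a GABA receptor subunit, with changes of 4.73, 0.76 and 4.17 in WT and 0.84, 0.76 and 0.14 in KO, named here after its values were seen. The number of calls rested on single clones: without WT clone 1, 2 or 3 it was 61, 856 or 9, and without KO clone 1, 2 or 3 it was 0, 1 or 161. Without KO clone 1 there were still 2083 genes at an unadjusted p under 0.05, and DESeq2 called 394. All 230 genes kept their direction, and an unadjusted p under 0.05, in each of these 6 fits. The genes were called on libraries that these fits share, so this is a description and no independent support. No gene list described below held a call without KO clone 1 or 2, and without WT clone 3 the endoderm list alone did. With clones unpaired the test called 61 genes, of which 56 were among the 230.

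**Figure D1:**
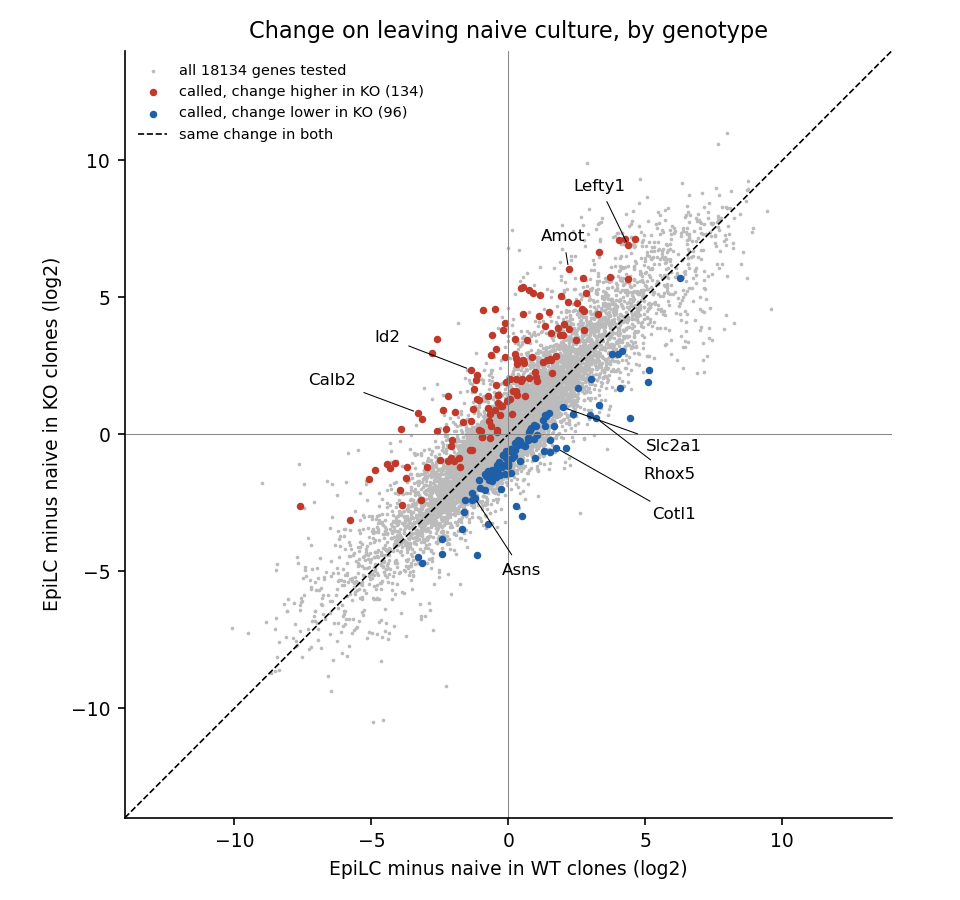
Change from naive culture to EpiLCs in WT (x axis) and KO clones (y axis), log2, 1 point per gene tested; the dashed line marks equal change. Grey points (18134 genes) follow the line with a correlation of 0.905, the 134 genes called higher in the interaction (red) lie above it and the 96 called lower (blue) below it.

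The called genes divided by the shape of their change. For 41 genes both genotypes rose and KO rose more, and for 20 both rose and KO rose less. For 30 both fell and KO fell more, and for 22 both fell and KO fell less. Only one genotype had a called change for 88 genes, of which 37 rose and 21 fell in KO, and 14 rose and 16 fell in WT. Opposite called changes were found for 29 genes, 18 that fell in WT and rose in KO and 11 that rose in WT and fell in KO. A change called in one genotype alone is not by itself a difference, but the interaction was called for each of these genes.

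The genes called higher and those called lower differed in the condition in which the genotypes stood apart. Of the 134 called higher, KO and WT differed in naive cells alone for 61, in EpiLCs alone for 36, in both for 13 and in neither for 24 (edgeR fit of the 4 groups, adjusted p under 0.05). The median gap, KO minus WT, of these genes was -1.22 in naive cells and 0.55 in EpiLCs. Of the 96 called lower, the genotypes differed in naive cells alone for 12, in EpiLCs alone for 55, in both for 12 and in neither for 17, and the median gap was 0.23 in naive cells and -0.74 in EpiLCs. Over all genes tested the genotypes differed for 9.24% in naive cells and 15% in EpiLCs. By their medians, genes called higher were thus low in naive KO cells and reached or passed WT in EpiLCs, while genes called lower started near WT and ended below it. The gap in each condition and the interaction come from the same libraries, so the split is a description. Of the 230 genes, 77 share exon bases with another gene, 64 of them on the opposite strand, and reads from such pairs cannot be told apart in these counts.

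**Figure D2:**
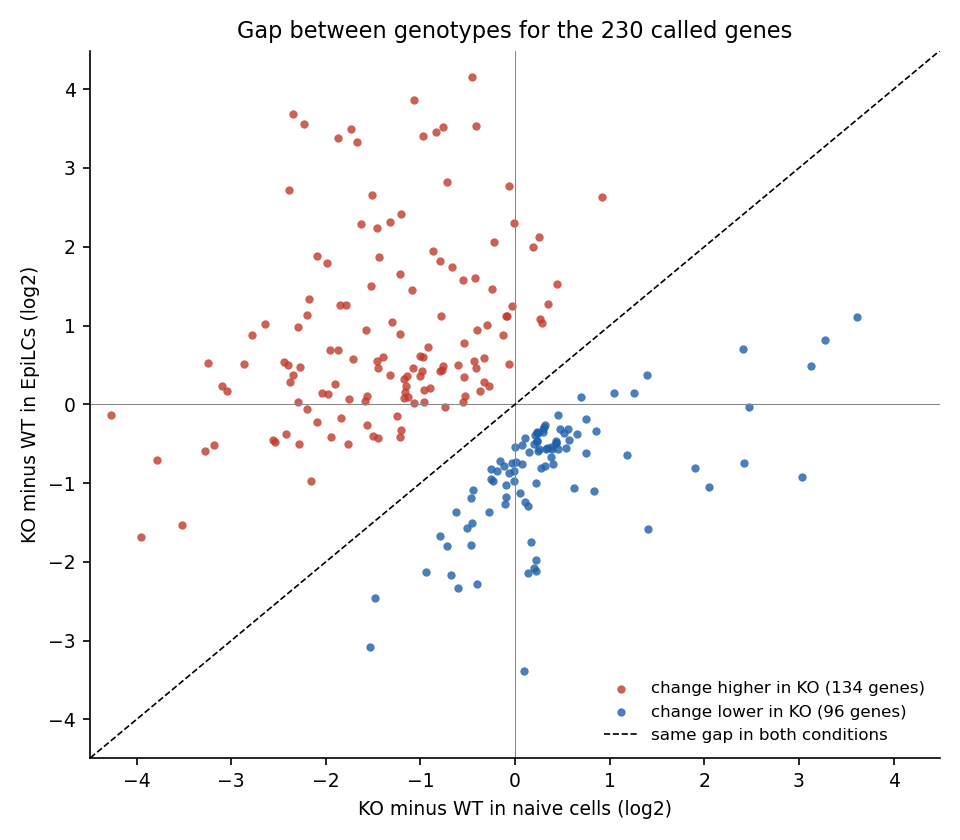
Gap between genotypes (KO minus WT, log2) in naive cells (x axis) and EpiLCs (y axis) for the 230 called genes, 1 point per gene; the dashed line marks an equal gap. Red points (134 genes called higher) have a median of -1.22 in naive cells and 0.55 in EpiLCs, blue points (96 called lower) 0.23 and -0.74.

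Among ATF4 and stress targets, the 1 call was asparagine synthetase. Asns stood at 975, 1123 and 940 CPM in naive WT and 868, 1082 and 900 CPM in naive KO. In EpiLCs it was at 446, 395 and 449 CPM in WT and 173, 198 and 200 CPM in KO. The genotypes overlapped in naive cells and did not overlap in EpiLCs. Asns fell in both, by 1.23 in WT and by 2.32 in KO, and the interaction was -1.08 ± 0.14 (SE, edgeR adjusted p = 0.019, 0.0029 to 0.095 with each clone left out).

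The other members of the ATF4 list were not called. All 19 members tested had an interaction below 0, with a median of -1.18 against 0.0022 over all genes; 1 of 19 was called. Atf4 itself was at 379, 641 and 460 CPM in naive WT and 335, 394 and 316 CPM in naive KO, then at 648, 494 and 610 CPM in EpiLC WT and 186, 173 and 194 CPM in EpiLC KO. It fell in KO by 0.91, its WT change was 0.27, and the interaction was -1.18 ± 0.28 (adjusted p = 0.091). WT clone 2 began highest and was the one control clone in which Atf4 was lower in EpiLCs than in naive cells. Nupr1, a stress-induced chromatin protein, was at 64.5, 55.5 and 69.6 CPM in EpiLC WT and 7.26, 5.50 and 6.05 CPM in EpiLC KO, with an interaction of -2.46 ± 0.57 (adjusted p = 0.087). Chac1, which degrades glutathione, was at 107, 47.0 and 104 CPM in EpiLC WT and 9.78, 8.40 and 8.81 CPM in EpiLC KO, with an interaction of -2.14 ± 0.76 (adjusted p = 0.21). For both Nupr1 and Chac1 the EpiLC gap on the log2 scale was larger than the interaction. Part of that gap was thus already present in naive cells. The mean change of the list was 1.40, -0.58 and 0.91 in WT clones 1, 2 and 3 and -0.39, -1.27 and -0.09 in the KO clones, so that the genotypes overlapped through WT clone 2. Without that clone the median was -1.86 and 7 of 19 members were called lower, Asns, Atf4, Nupr1, Jdp2, Ddit4, Eif4ebp1 and Gdf15. That fit called 4.56% of all genes, against 1.27% with all clones. Without WT clone 1 the median was -0.68 with 17 of 19 members below 0, and without KO clone 2 it was -0.92 with 16 of 19 below 0 and none called.

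**Figure D3:**
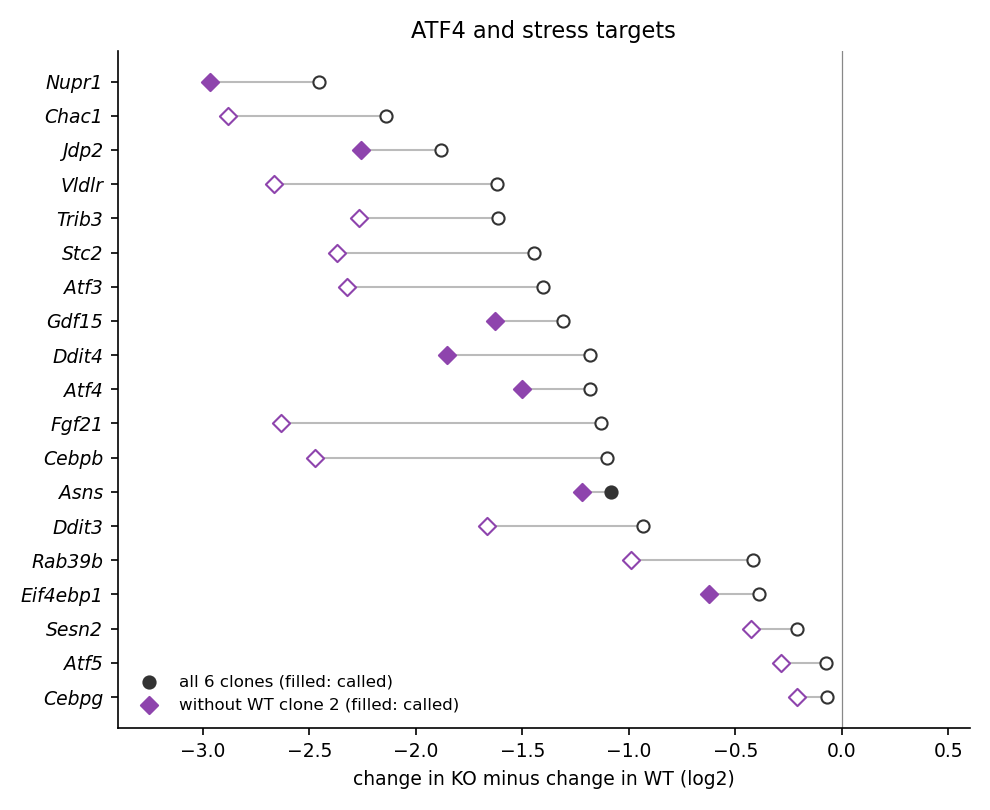
Interaction (change in KO minus change in WT, log2) of the 19 ATF4 and stress targets tested, with all 6 clones (circles) and without WT clone 2 (diamonds); filled symbols passed an adjusted p of 0.05. All points lie below 0, with medians of -1.18 and -1.86. Filled are 1 and 7 members, in fits that called 1.27% and 4.56% of all genes.

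Amino acid enzymes outside that list gave few calls. Of 19 serine, glycine and one-carbon genes, 2 were called lower (10.5%, against 1.27% of all genes called), with a list median of -0.42. Without WT clone 2, 7 were called lower at a median of -0.72, in a fit that called 4.56% of all genes. The median was -0.17 without WT clone 1 and -0.15 without KO clone 2. Amt, the aminomethyltransferase of the glycine cleavage system, was at 169, 140 and 162 CPM in naive WT and 168, 196 and 204 CPM in naive KO, then at 106, 125 and 109 CPM in EpiLC WT and 61.0, 65.8 and 67.4 CPM in EpiLC KO. Its groups were apart in EpiLCs, and it fell further in KO by 1.08 ± 0.14 (edgeR adjusted p = 0.020). Gnmt, which methylates glycine, rose in both genotypes but less in KO, to 1.79, 1.88 and 0.65 CPM against 4.51, 6.16 and 6.38 CPM in WT (interaction -2.24 ± 0.40). Gldc, another subunit of glycine cleavage, was lower in KO in both conditions by 1.62 and 1.29 and its interaction, 0.34 ± 0.09, was not called (adjusted p = 0.12). Of 23 genes of proline, arginine, glutamine, glutamate and aspartate metabolism, 3 were called lower: Asns, Prodh (proline oxidation, -0.93 ± 0.16) and Asl (argininosuccinate lyase, -0.65 ± 0.12); without WT clone 2 the count was 5. Bcat1, the cytosolic branched-chain aminotransferase, was the 1 call of 23 in the threonine, lysine and branched-chain list. It was at 588, 476 and 437 CPM in EpiLC WT and 243, 265 and 330 CPM in EpiLC KO, from overlapping naive levels of 1115 to 1303 CPM, with an interaction of -0.83 ± 0.13. Ggct, of glutathione breakdown, was the 1 call of 22 in the methionine, cysteine and glutathione list and was higher (1.25 ± 0.19); without WT clone 2, 2 were called higher and 1 lower.

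No cytosolic aminoacyl-tRNA synthetase was called, although 18 of 20 lay below 0 (median -0.33). Their mean change was 0.40, -0.18 and 0.30 in WT and -0.11, -0.31 and -0.08 in KO, again with WT clone 2 among the KO clones, and 8 of 20 were called lower without it. None of 28 amino acid transporters, 17 mitochondrial synthetases or 12 genes of the integrated stress response (eIF2α kinases, eIF2B subunits, phosphatase subunits and Eif2s1) was called; without WT clone 2 the counts were 6 (1 higher, 5 lower), 1 lower and 2 lower. Over all genes, 4.56% were called in that fit.

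For glycolysis genes the mean change over the list did not overlap between the genotypes. It was 0.87, 0.85 and 0.80 in the WT clones and 0.33, 0.34 and 0.53 in the KO clones. Gene by gene, the KO clones lay below the WT clones without overlap for 10 of 23, and above them for 0. Over all genes tested, the clones did not overlap, in either direction, for 24.4%. The interaction was below 0 for 20 of 23, with a median of -0.36, and 2 were called (8.7%), against 1.27% of all genes. Slc2a1, the glucose transporter GLUT1, was at 126, 109 and 140 CPM in naive WT and 96.2, 92.0 and 75.7 CPM in naive KO, then at 478, 405 and 652 CPM in EpiLC WT and 172, 173 and 173 CPM in EpiLC KO. The groups were apart in both conditions and further apart in EpiLCs; the interaction was -1.03 ± 0.13 (adjusted p = 0.019, 0.0082 to 0.10 with each clone left out). Pfkm, a phosphofructokinase, was at 165, 278 and 154 CPM in EpiLC WT and 110, 130 and 106 CPM in EpiLC KO (-1.04 ± 0.17, adjusted p = 0.034); it overlaps Senp1 on the other strand. Aldoa, Gapdh and Hk2 had interactions of -0.54, -0.43 and -0.65 with adjusted p-values of 0.086, 0.063 and 0.062. Slc16a1, Ldha and Tpi1 lay between -0.06 and 0.01. Without WT clone 2 the median was -0.41 and 3 genes were called lower, in a fit that called 4.56% of all genes. Without KO clone 1 the median was -0.22 with 18 of 23 below 0, and no gene of any kind was called. With clones unpaired none of the 23 was called, at the same median of -0.36.

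**Figure D4:**
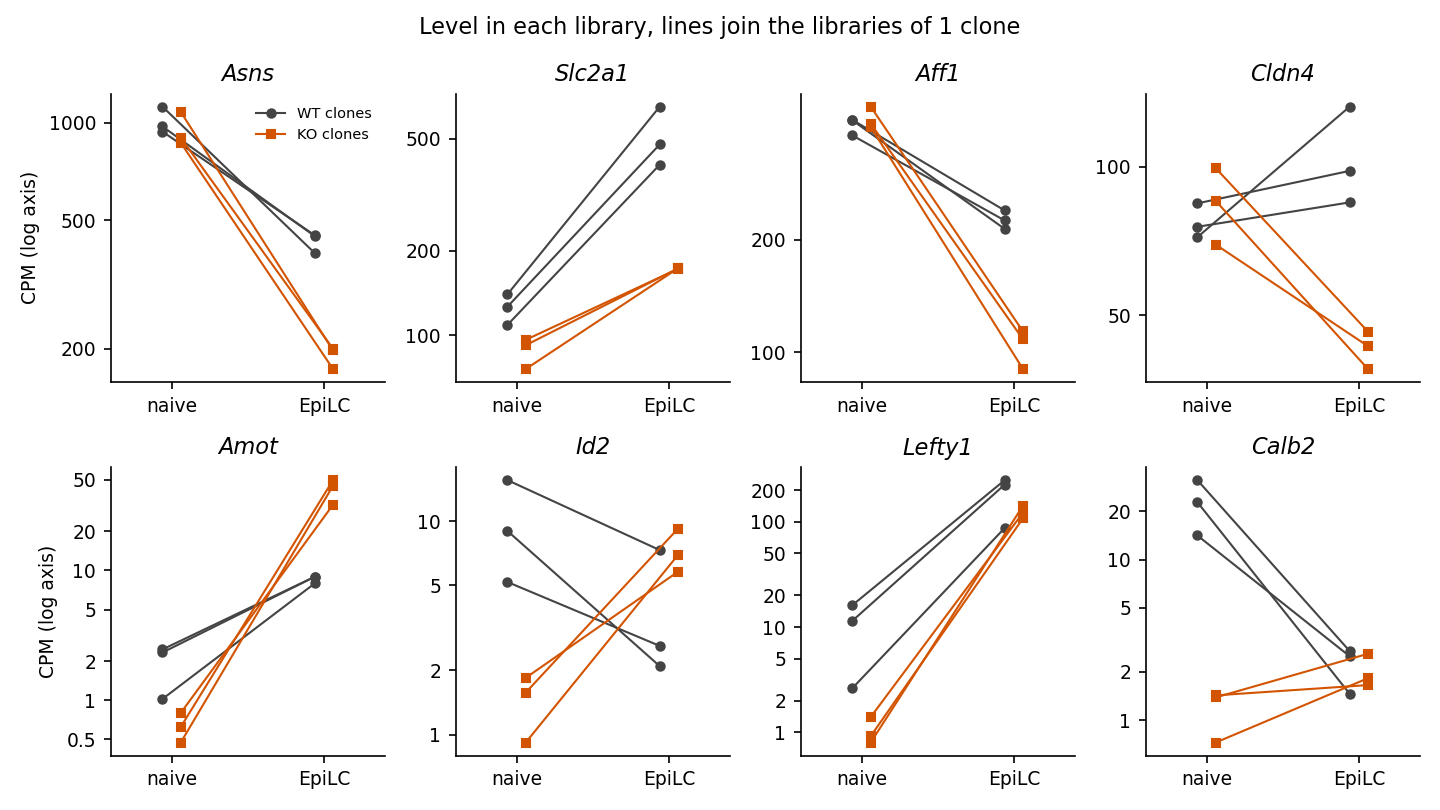
Level of 8 genes in each library (CPM, log axis) in naive cells and EpiLCs; lines join the libraries of a clone, grey circles WT and orange squares KO. Asns, Aff1 and Cldn4 start at overlapping levels and end lower in KO, Slc2a1 rises less in KO, and Amot, Id2, Lefty1 and Calb2 start lower in KO, with Amot ending at 32.1 to 49.6 CPM in KO against 7.96 to 8.95 CPM in WT.

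Signalling readouts moved in different directions. ERK, the kinase that the naive medium holds down and bFGF activates, induces Dusp, Spry and Etv genes as feedback. The list of 14 ERK response genes also held Spred1, Spred2, Egr1, Fos, Ier3 and Myc. Of the 14, 2 were called (14.3%, against 1.27% of all genes), both lower, with a median of -0.34. The interaction was below 0 for 9 and above 0 for 5, among them Egr1 (1.10), Fos (0.37) and Myc (0.30). Without WT clone 2, 4 were called lower at a median of -0.40, in a fit that called 4.56% of all genes. Without KO clone 3 none was called and the median was -0.09. Spry1, an inhibitor of receptor tyrosine kinase signalling, rose in both genotypes, from 1.86 to 3.51 CPM across naive libraries to 31.7, 40.2 and 34.6 CPM in EpiLC WT and 23.6, 27.1 and 21.7 CPM in EpiLC KO (-1.09 ± 0.17, adjusted p = 0.031). The EpiLC gap of Spry1 on the log2 scale was smaller than its interaction. The rest of the interaction came from the low naive levels, which were on average higher in KO. The ETS factor Etv5 was at 301, 314 and 288 CPM in naive WT and 360, 360 and 395 CPM in naive KO, and at 551, 541 and 517 CPM in EpiLC WT and 454, 438 and 427 CPM in EpiLC KO. It was above WT in naive KO cells and below WT in KO EpiLCs, without overlap in either (-0.59 ± 0.10). Dusp6 had an interaction of -0.80 (adjusted p = 0.19, and 0.0065 without WT clone 2) and Spry2 of 0.40 (adjusted p = 0.29). Dusp1, a phosphatase of MAP kinases induced by growth factors and stress and not on that list, rose in WT from 17.4, 22.9 and 25.0 CPM to 44.0, 73.4 and 47.6 CPM. In KO it fell from 37.9, 42.01 and 36.8 CPM to 26.2, 27.4 and 23.3 CPM (interaction -1.92 ± 0.19, adjusted p = 0.012).

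NODAL and activin act through SMAD proteins and induce their own inhibitors, the Lefty proteins. Of 10 genes of this response 2 were called higher (20%, against 1.27% of all genes called), with a median of 0.42. The mean change was 1.47, 1.33 and 1.48 in WT and 2.09, 2.15 and 2.38 in KO. Lefty1 was at 16.1, 2.63 and 11.5 CPM in naive WT and 1.40, 0.92 and 0.80 CPM in naive KO. In EpiLCs it reached 249, 87.3 and 226 CPM in WT and 122, 108 and 142 CPM in KO, where the groups overlapped. Its interaction was 2.52 ± 0.33 (adjusted p = 0.021). Lefty2 followed the same course, from 3.44 to 11.6 CPM in naive KO against 22.1 to 92.6 CPM in naive WT, with an interaction of 1.96 ± 0.48 that was not called (adjusted p = 0.098). Pmepa1, an inhibitor of SMAD signalling, was at 25.0, 28.8 and 28.2 CPM in naive WT and 6.57, 10.6 and 18.1 CPM in naive KO. It rose only in KO, to 37.4, 34.9 and 41.6 CPM, against 22.9, 13.2 and 25.2 CPM in EpiLC WT (2.26 ± 0.38, adjusted p = 0.037). The ligand Nodal (0.11) and its coreceptor Tdgf1 (0.41) were not called. Without WT clone 2 the median of the list was 0.17 and 2 genes were called higher, in a fit that called 4.56% of all genes. Without WT clone 1 the count was 1, and without KO clone 3 it was 2. Without WT clone 3, KO clone 1 or KO clone 2 it was 0 each.

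The BMP response was read from Bmp4, Bambi, Smad6, Smad9 and the Id and Msx genes. It gave 1 call among 10 genes (10%, against 1.27% of all genes) with a median of 0.98, and only 3 of the 10 averaged at least 5 CPM. Of the 10, 8 were above 0, and Bmp4 (-0.62) and Id4 (-0.45) were below. Id2, an inhibitor of helix-loop-helix factors, was at 5.19, 15.6 and 9.00 CPM in naive WT and 1.57, 0.92 and 1.85 CPM in naive KO. It fell in WT, to 2.61, 7.32 and 2.10 CPM, and rose in KO, to 9.23, 6.95 and 5.80 CPM. The groups were apart in naive cells and overlapped in EpiLCs, and the interaction was 3.74 ± 0.43 (adjusted p = 0.019, 0.0065 to 0.090 with each clone left out). Id1 (2.13 ± 0.55, adjusted p = 0.097) and Id3 (1.37 ± 0.41, adjusted p = 0.14) were positive and not called. Id1 was called without WT clone 2 (2.72, edgeR adjusted p = 0.015); without each of the other clones its adjusted p was 0.13 to 0.28. The mean change of the list was -1.16, -0.42 and -1.14 in WT and -0.07, 0.44 and 0.24 in KO, without overlap.

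**Figure D5:**
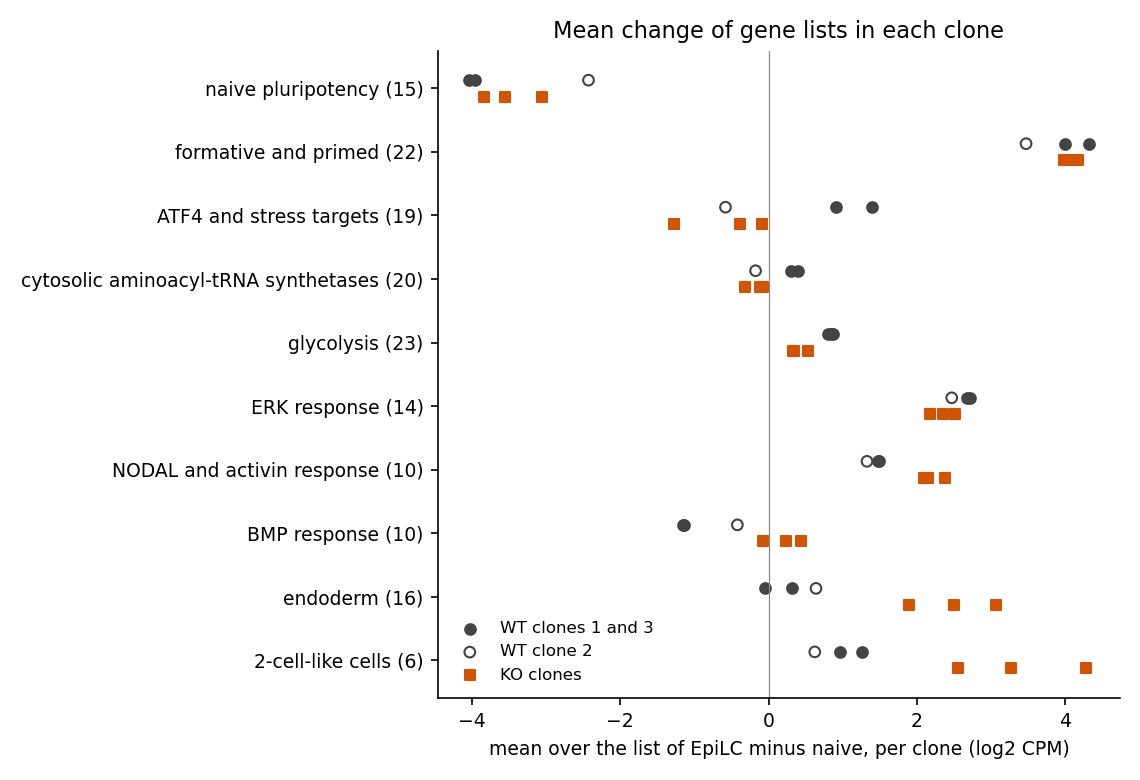
Mean change from naive cells to EpiLCs over the members of 10 gene lists (log2 CPM; number of genes tested in brackets), 1 point per clone; open circles are WT clone 2. WT and KO overlap for naive genes, formative genes, ATF4 targets, tRNA synthetases and the ERK response, and do not overlap for glycolysis, NODAL, BMP, endoderm and 2-cell-like genes.

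The pluripotency lists gave few calls. None of 15 naive genes was called (median 0.02), and 13 of them fell in WT and 14 in KO. Without WT clone 2 the median was 0.35 and 2 were called higher, in a fit that called 4.56% of all genes. The sign of this median rested on single clones, since it was -0.23 without WT clone 1 and -0.20 without WT clone 3. Klf4 fell by 6.18 in WT and by 5.30 in KO, and Tfcp2l1 by 5.44 and by 5.66. None of 8 core pluripotency genes was called. Of 22 formative and primed genes 21 rose in each genotype, with median changes of 3.94 and 4.07. Fgf5 reached 134, 84.3 and 115 CPM in EpiLC WT and 143, 125 and 129 CPM in EpiLC KO (interaction 0.29 ± 0.28). In this list 4 genes were called (18.2%, against 1.27% of all genes), in both directions. The median interaction was 0.12, and -0.18 without WT clone 2, where 2 were called higher and 4 lower. The DNA methyltransferase Dnmt3a rose to 1372, 854 and 1293 CPM in WT and 963, 1152 and 1082 CPM in KO, from 11.5 to 17.5 CPM in naive WT and 19.2 to 22.1 CPM in naive KO (-0.58 ± 0.09, adjusted p = 0.028). Its levels overlapped in EpiLCs, and it overlaps Dnmt3aos on the other strand. Etv5 is described above. Foxp1, a forkhead factor, started lower in KO and reached 68.7 to 71.3 CPM against 55.8 to 74.0 CPM in WT (1.27 ± 0.22). Cdh2, or N-cadherin, rose from 0.42, 0.22 and 0.86 CPM to 8.17, 12.3 and 31.2 CPM in KO and from 2.60, 1.57 and 1.22 CPM to 11.7, 4.03 and 5.79 CPM in WT (3.12 ± 0.41). Of 15 cadherin and junction genes, Cdh2 was the 1 call upwards and Cldn4, an epithelial claudin, the 1 downwards. Cldn4 was at 71.9 to 84.2 CPM in naive WT and 69.5 to 99.3 CPM in naive KO, and at 84.6, 132 and 98.0 CPM in EpiLC WT against 43.3, 38.9 and 46.3 CPM in EpiLC KO (-1.39 ± 0.21).

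Endoderm regulators were the lineage group with the most calls, at low levels. Of 16 genes 14 were positive, and 3 were called higher (18.8%, against 1.27% of all genes called). The median was 2.46, and 4 averaged at least 5 CPM. Gata6 was at 0.62, 4.71 and 0.47 CPM in EpiLC WT and 7.30, 10.5 and 10.3 CPM in EpiLC KO (2.75 ± 0.52, adjusted p = 0.045), and Gata4 at 0.30, 0.82 and 0.50 CPM and 2.53, 4.10 and 1.86 CPM (3.55 ± 0.57, adjusted p = 0.031). Both are GATA factors of primitive endoderm, and both rose in KO only. Sox17, Sox7 and Foxa2 had interactions of 3.86, 4.54 and 4.90 with adjusted p-values of 0.052, 0.060 and 0.078. The laminin gene Lama1 fell in both genotypes and stayed higher in KO EpiLCs, at 55.4, 46.4 and 21.1 CPM against 4.30, 9.45 and 6.88 CPM (1.83 ± 0.40, adjusted p = 0.077). The summed level of the 7 endoderm markers tested was 2.03 to 7.73 CPM in EpiLC WT and 16.6 to 23.0 CPM in EpiLC KO. Without WT clone 2, 8 of the 16 were called higher, in a fit that called 4.56% of all genes. Without WT clone 1 or 3 the count was 1 each, without KO clone 1 or 2 it was 0 each, and without KO clone 3 it was 2. Whether a few cells or all cells carried these transcripts was not measured.

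Other lineages and states gave single calls. Kdr, a VEGF receptor, was the 1 call of 11 mesoderm genes: it fell from 5.61, 9.32 and 5.44 CPM to 0.35, 0.41 and 0.23 CPM in WT and from 1.57, 1.50 and 4.00 CPM to 0.57, 0.92 and 1.35 CPM in KO (3.07 ± 0.39). Of 6 genes of 2-cell-like cells, a rare state that expresses genes of the early embryo, 5 were positive and Zscan4d was called (3.92 ± 0.48). Its EpiLC levels were 1.10, 0.52 and 1.40 CPM in WT and 1.06, 9.33 and 0.87 CPM in KO, so that KO clone 2 was highest and the rest overlapped. In naive libraries all 6 genes together summed to only 0.61 to 2.97 CPM in WT and 0.49 to 1.20 CPM in KO. The changes of this list thus start from values near the floor. No gene of this list averaged 5 CPM, and its Zscan4 members are near-identical copies among which reads can be lost; without WT clone 2, 3 genes of the list were called higher. Tex11 was the 1 call of 18 germline genes (1.28 ± 0.24). None of 6 neuroectoderm, 10 trophoblast and 7 fibroblast genes was called. Without WT clone 2, 2 fibroblast genes, Col1a2 and Vim, were called higher. That fit called 4.56% of all genes.

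Cell cycle, p53 and stress lists gave at most 1 call each. All 16 G2 and M phase genes were above 0, by a median of 0.18, and none was called, though 2 were without WT clone 2; of 16 S phase genes Ccne1, or cyclin E, was called higher (0.64 ± 0.11). Btg2, an antiproliferative p53 target, was the 1 call of 18 in its list: it fell in WT to 37.2, 26.3 and 44.7 CPM and rose in KO to 93.2, 80.4 and 88.0 CPM, from overlapping naive levels of 48.8 to 75.4 CPM (0.94 ± 0.14). Hspa5, the endoplasmic reticulum chaperone BiP, was the 1 call of 11 RNA quality and stress genes, with 694, 739 and 795 CPM in EpiLC KO against 608 to 617 CPM in EpiLC WT (interaction 0.61 ± 0.11). The EpiLC gap of Hspa5 on the log2 scale was smaller than its interaction. The rest of the interaction came from naive levels that were on average lower in KO. The mean change of that list was -0.59, -0.58 and -0.67 in WT and -0.34, -0.39 and -0.08 in KO, without overlap; its part in other results was not tested. The cholesterol, WNT, LIF and STAT3, basement membrane and mitochondrially encoded lists held no call. In the fit without WT clone 2, the basement membrane list held 2 calls higher and 1 lower, and the p53 list and the RNA quality and stress list 2 calls each. That fit called 4.56% of all genes.

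Beyond the lists, several of the genes with large positive differences began at low levels in naive KO cells. Calb2, or calretinin, was at 14.2, 22.9 and 31.4 CPM in naive WT and 1.43, 0.72 and 1.38 CPM in naive KO. It fell in WT, to 2.50, 1.46 and 2.69 CPM, where it met the KO levels of 1.65, 1.82 and 2.59 CPM (4.11 ± 0.45, adjusted p = 0.017). Padi2, Tbx15 and Cpe also began lower in KO and fell in WT, with naive gaps of -2.27, -2.64 and -1.57. Their EpiLC gaps were 0.47, 1.02 and 0.94. Padi2 and Tbx15 also fell in KO, by less than in WT. Chst15, a sulfotransferase, and Fjx1 rose in both genotypes from naive levels that were lower in KO by 2.41 and by 2.44. Amot, the scaffold angiomotin of the Hippo pathway, instead crossed over. It was at 2.47, 1.02 and 2.34 CPM in naive WT and 0.62, 0.47 and 0.80 CPM in naive KO, and reached 8.95, 7.96 and 8.95 CPM in EpiLC WT and 49.6, 44.9 and 32.1 CPM in EpiLC KO. KO was below WT in naive cells and above it in EpiLCs, with an interaction of 3.84 ± 0.40 (adjusted p = 0.014, 0.0021 to 0.090 with each clone left out). Lbh crossed in the same way (3.56 ± 0.55). Sall3, a zinc finger factor, began level and fell to 5.08, 1.46 and 0.865 CPM in EpiLC WT against 13.1, 18.1 and 20.7 CPM in EpiLC KO (3.09 ± 0.46).

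Large negative differences took more than one form. Rhox5, an X-linked homeobox gene, and Prss42, a serine protease, were high in naive KO cells and level with WT in EpiLCs. Rhox5 was at 29.9, 92.5 and 30.1 CPM in naive WT and 344, 267 and 232 CPM in naive KO, and at 342, 638 and 310 CPM in EpiLC WT and 486, 370 and 400 CPM in EpiLC KO. The groups were apart in naive cells and overlapped in EpiLCs (-2.63 ± 0.19, adjusted p = 0.0061). Other genes were low in KO EpiLCs. Cotl1, an actin-binding protein, was at 5.67, 9.42 and 6.13 CPM in naive WT and 11.7, 5.93 and 7.11 CPM in naive KO. It rose in WT, to 15.6, 28.2 and 28.8 CPM, and stood at 5.72, 5.66 and 5.38 CPM in EpiLC KO (-2.27 ± 0.31). Ism2, Il34, Wfdc2 and A4galt fell in both genotypes and further in KO, by 1.95, 1.76, 1.56 and 1.40. Epha7, an ephrin receptor, fell only in KO, from 13.2, 11.5 and 15.3 CPM to 2.96, 1.90 and 1.75 CPM, while WT clones were at 4.81 to 5.19 CPM and then at 3.20, 10.1 and 6.78 CPM (-2.89 ± 0.45). Aff1 encodes a scaffold of the super elongation complex. Its levels were 382, 419 and 420 CPM in naive WT and 402, 411 and 456 CPM in naive KO, and 226, 214 and 240 CPM in EpiLC WT and 90.0, 108 and 114 CPM in EpiLC KO (-1.19 ± 0.11, adjusted p = 0.012). Col18a1, a basement membrane collagen, took the form of Rhox5: it was higher in naive KO cells, at 116 to 134 CPM against 45.3 to 57.8 CPM, and overlapped WT in EpiLCs (-1.10 ± 0.12).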

How the data were processed

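The authors deposited unnormalized counts of reads over each gene's exons, made per the file headers with featureCounts 2.0.1 on GENCODE vM25 without options for strand, pairs or shared reads; the submitters' processing notes name fastp, FastQC, STAR, DESeq2 and GRCm38 (mm10). The deposited column of exonic length was used only to remove a length trend. The 346 genes without a symbol took at most 0.0312% of the counts of any library.

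Counts were scaled by TMM and filtered by filterByExpr (minimum count 10, minimum total 15) in edgeR 4.0.16 (R 4.3.3). A robust quasi-likelihood fit held a term for each of the 6 clones and the EpiLC change in WT and in KO (4 residual degrees of freedom), with Benjamini-Hochberg adjustment over 18134 genes. The series text says that the same clones were grown in both conditions. Libraries of the same number correlated at 0.145 to 0.264 in their deviations from group means, against -0.248 to 0.0483 for different numbers. Deviations from the mean of a group sum to 0, so positive values for the same number push those for different numbers down. The contrast between the ranges is thus partly built in. Gaps between genotypes came from a 4-group fit with 8 residual degrees of freedom. The SE is the log2 value divided by the root of its F statistic. Per-clone changes are on log2 CPM with a prior count of 2; CPM uses TMM-scaled library sizes. DESeq2 1.42.0 was an alternative. The same fit was also run on counts simulated from its own fitted values, and the outcome is not given here.

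The members and the 35 gene lists were chosen with earlier results of these data known. Named genes are the PCBP family; the 12 highest and 12 lowest called genes with a mean of at least 5 CPM, a gene name and non-overlapping clones; 3 per shape of change; up to 5 per list by adjusted p; and the naive, formative and ATF4 lists. Some genes that this rule names are left out. Alternatives were other size factors, filters, tools, no pairing, each clone left out, and trends on length and GC content. Promoter sequences are from RefSeq (GRCm38.p6).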

Additional observations from a re-analysis of the deposited data

Results flagged for a closer look

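Each gene below was singled out because its change from naive cells to EpiLCs differed between KO and WT clones by the interaction test (edgeR adjusted p under 0.05), and because the rule for naming genes picked it. Values are the change in KO minus the change in WT, log2. These 62 genes were chosen partly for the size of that difference.

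Of genes that rose in both genotypes and more in KO, the difference was 0.64 for Ccne1, 1.27 for Foxp1, 1.28 for Bahcc1, 2.52 for Lefty1, 2.90 for Chst15, 2.99 for Fjx1, 3.12 for Cdh2 and 3.84 for Amot. In the same group it was 3.92 for Zscan4d. Where both rose and KO rose less, it was -2.63 for Rhox5, -2.24 for Gnmt, -1.10 for Col18a1, -1.09 for Spry1, -1.03 for Slc2a1, -0.59 for Etv5 and -0.58 for Dnmt3a. Where both fell and KO fell more, the values were -1.95 for Ism2, -1.76 for Il34, -1.56 for Wfdc2, -1.40 for A4galt, -1.19 for Aff1, -1.08 for Asns, -1.08 for Amt and -0.83 for Bcat1. Where both fell and KO fell less, they were 1.01 for B4galnt4, 2.65 for Padi2, 3.07 for Kdr, 3.09 for Sall3 and 3.60 for Tbx15. Among genes with a called rise in KO alone, the difference came to 0.61 for Hspa5, 1.25 for Ggct, 1.26 for Sh3bgrl2, 1.28 for Tex11, 1.30 for L3mbtl3, 1.41 for Lrrc1, 2.26 for Pmepa1 and 2.75 for Gata6. In the same group it was 3.55 for Gata4 and 3.56 for Lbh. A called fall in KO alone went with -2.89 for Epha7, -1.51 for Sorcs2, -1.05 for Syne4, -0.94 for Actg1 and -0.78 for Slc44a2. A called rise in WT alone was seen with -2.27 for Cotl1, -1.70 for Scarf1, -1.04 for Pfkm, -0.95 for Deptor, -0.93 for Prodh and -0.68 for Fancd2. A called fall in WT alone went with differences of 0.86 for Man2a1, 2.50 for Cpe and 4.11 for Calb2. Genes that rose in WT and fell in KO gave -2.61 for Prss42, -1.92 for Dusp1, -1.39 for Cldn4, -1.03 for Tep1 and -0.65 for Asl. Genes that fell in WT and rose in KO gave 0.94 for Btg2, 1.20 for Gca, 1.41 for Nol4l and 3.74 for Id2.

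The direction held for all of them in each of the 13 alternative settings that tested them. These settings reuse the libraries on which the genes were called, so this is a description. Each call was lost in at least 2 of the 6 fits that left out a clone. Among them, 22 kept the call with clones unpaired, 62 with DESeq2 and 61 with the trend on GC content removed.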

How the results depend on the processing

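The 230 calls of the interaction (134 higher, 96 lower) depended on the pairing and on single clones. Without the replicate block, so with clones unpaired, the counts were 61, 41 higher and 20 lower. DESeq2 with the pairing gave 905, 491 and 414. With no filter on low counts edgeR gave 1055, 540 and 515. With the trend on GC content removed and the block kept, an alternative chosen after seeing the data, it gave 356 calls, 222 of them higher. Leaving out each clone in turn gave 0 to 856 calls, 0 to 493 higher and 0 to 363 lower; the lowest was without KO replicate 1 (2083 genes at an unadjusted p under 0.05, 394 called by DESeq2) and the highest without WT replicate 2. The causes were not tested, beyond fewer clones leaving fewer residual degrees of freedom. Other size factors, a stricter filter and removal of a length trend stayed within 1.5 times of the main count. All 230 called genes kept their direction in every setting in which they were tested. Each setting reuses libraries on which the 230 were called, so a kept direction is no independent support. The counts for the change within WT and within KO stayed within 1.5 times in every setting. The medians of some gene lists near 0 changed sign: naive pluripotency went from 0.02 to -0.09 with clones unpaired and to -0.23 and -0.20 without WT replicates 1 and 3, formative and primed genes from 0.12 to -0.18 without WT replicate 2, WNT from 0.14 to -0.17 and LIF and STAT3 from 0.07 to -0.05 without WT replicate 3. Of the 230 genes, 227 were also called by DESeq2. Depth limits most the genes near 1 CPM, about 27 to 42 counts per library.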
